A study of Mus musculus with 4 samples.

Results

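Genes of DNA replication and of the repair that accompanies it were read in basal cells sorted from mouse tail epidermis. The 52 genes were chosen by name, and all probe sets carrying one of their symbols were taken, of 18193 genes with a named probe set in all. A named probe set was found for 51, Chaf1a being the exception, and 49 passed the filter on dim probe sets, a mean log2 value of 5.42. Tyms, the thymidylate synthase gene, and Bard1, which encodes the partner of Brca1, were measured but lay under it.

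All cells came from CD-1 mice with a RosaYFP reporter that Cre recombinase switches on, and both groups received tamoxifen. In K14CREER mice the inducible Cre is driven by the keratin 14 promoter, which is active in basal keratinocytes, and the dose was 1 ug. In InvCREER mice it is driven by the involucrin promoter, known from differentiating keratinocytes, and the dose was 10 ug. Living YFP-positive cells with high alpha6 integrin and no surface CD34 were sorted after 3.5 days by the titles or 4 days by the treatment protocol. Each line has 2 Affymetrix arrays, and no label says whether these are different animals. The p-values therefore reflect only how far these samples spread, which may be technical. The effects of tamoxifen dose and of the driver cannot be told apart. The comparison asks how basal cells marked through the involucrin promoter differ from those marked through the keratin 14 promoter.

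DNA is copied once per cell cycle. In G1 phase the origin recognition complex, Cdc6 and Cdt1 load the ring of Mcm proteins onto DNA, and geminin later blocks Cdt1 so that no origin is loaded again. Cdc45 and the GINS complex then turn the ring into an active helicase, polymerases copy the strands, and repair and checkpoint proteins guard the forks. Many of these genes are classical targets of E2F transcription factors and are transcribed mainly as cells enter S phase. In the basal layer of the epidermis they are known as markers of cycling keratinocytes.

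The arrays themselves set limits that touch every value below. Array medians were 5.40 to 5.44 on the log2 scale and the highest value was 14.2. Basal markers were at a mean of 12.48 to 12.63 in K14CREER and 11.63 to 11.82 in InvCREER, with all 9 above the filter, so that markers of the labelled cell type were present. All 9 had lower means in InvCREER, with a median difference of -0.60, where 51.8% of all tested genes had lower means. Of the 9, Krt15 fell by 1.38 (limma adjusted p = 0.0212) and Lamb3 by 1.77 (limma adjusted p = 0.0440). Krt14 was at 13.82 to 14.17 and Itga6, the alpha6 integrin gene, at 11.62 to 12.41 on the arrays, while Cd34 had a mean under the filter but reached 6.07 on K14CREER 1, against 3.59 to 3.88 elsewhere. Ivl, the gene whose promoter drives InvCREER, lay under the filter on its brightest probe set, with 4.58 and 6.23 for K14CREER against 4.78 and 5.06. All 7 spinous markers had higher means in InvCREER, with list means of 10.68 on both K14CREER arrays against 12.25 and 12.42. Limma called 6 of them higher at an adjusted p under 0.05, where 108 of all 11270 tested genes were. The exception was Krtdap, at 0.46 (limma adjusted p = 0.0754). InvCREER 1 stood apart by its sebaceous markers, at 10.69 against 9.03 on InvCREER 2 and 7.36 to 7.87 in K14CREER, and by Langerhans and myeloid markers, at 7.46 against 5.42 to 6.20 on the other arrays. K14CREER 1 stood apart by Krt18 and Krt8, known from Merkel cells, at 7.69 against 4.20 to 4.40 and at 7.44 against 5.08 to 5.34. The other Merkel markers, Krt20, Atoh1, Sox2 and Isl1, did not share this. They were at 3.27 to 5.03 on K14CREER 1 against 3.09 to 4.97 elsewhere, with means under the filter, as was that of Krt18. The collagen gene Col3a1 was also higher on K14CREER 1, at 6.12 against 3.73 to 4.43. Dermal fibroblast markers had list means of 7.03 and 6.23 in K14CREER against 5.94 and 5.72, with Col1a1, Col3a1, Lum and Pdgfra under the filter. Of these markers Sparc fell, by 2.36 (limma adjusted p = 0.00612), and Dcn was at -1.87. Thy1, from the T cell list, was at -1.81, but Cd3e and Cd8a of that list were at -0.0024 and -0.019. Cd3d and Cd3g lay under the filter. The part of these differences in the results on replication genes was not tested.

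Every replication and repair gene that could be tested had a lower mean in InvCREER than in K14CREER, and none passed the threshold on its own. All 49 lay lower, with differences of -1.75 to -0.11 in log2 units, with a median of -0.62, which corresponds to a 1.54-fold higher level in K14CREER. Over all 11270 tested genes the median was -0.01 and 51.8% had a lower mean. In 31 of the 49 both InvCREER arrays lay under both K14CREER arrays, termed separated, a pattern seen in 24.1% of all tested genes, and no gene of the 49 had the opposite pattern. A difference of at least 1.5-fold was reached by 27 of the 49, against 8.73% of all tested genes.

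The limma test called 0 of the 49 at an adjusted p under 0.05 over all 22519 tested probe sets, while 0.959% of those probe sets were called, 0.275% lower and 0.684% higher. Counted by gene, 0.373% were called lower. At an unadjusted p under 0.05, 22 of the 49 were lower and 0 higher, against 8.54% of all tested genes lower. For a single gene the smallest 2-sided p of an exact permutation test is 0.333 with so few arrays. The smallest adjusted p was that of Tk1 (limma adjusted p = 0.0566). With 1 array left out, the median difference of the 49 ran from -0.91 to -0.33. In such a fit 1 line has a single array, and its spread is taken from the line with both arrays. Fewer cells in S phase and less of these messages per cell cannot be told apart in sorted bulk cells.

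**Figure D1:**
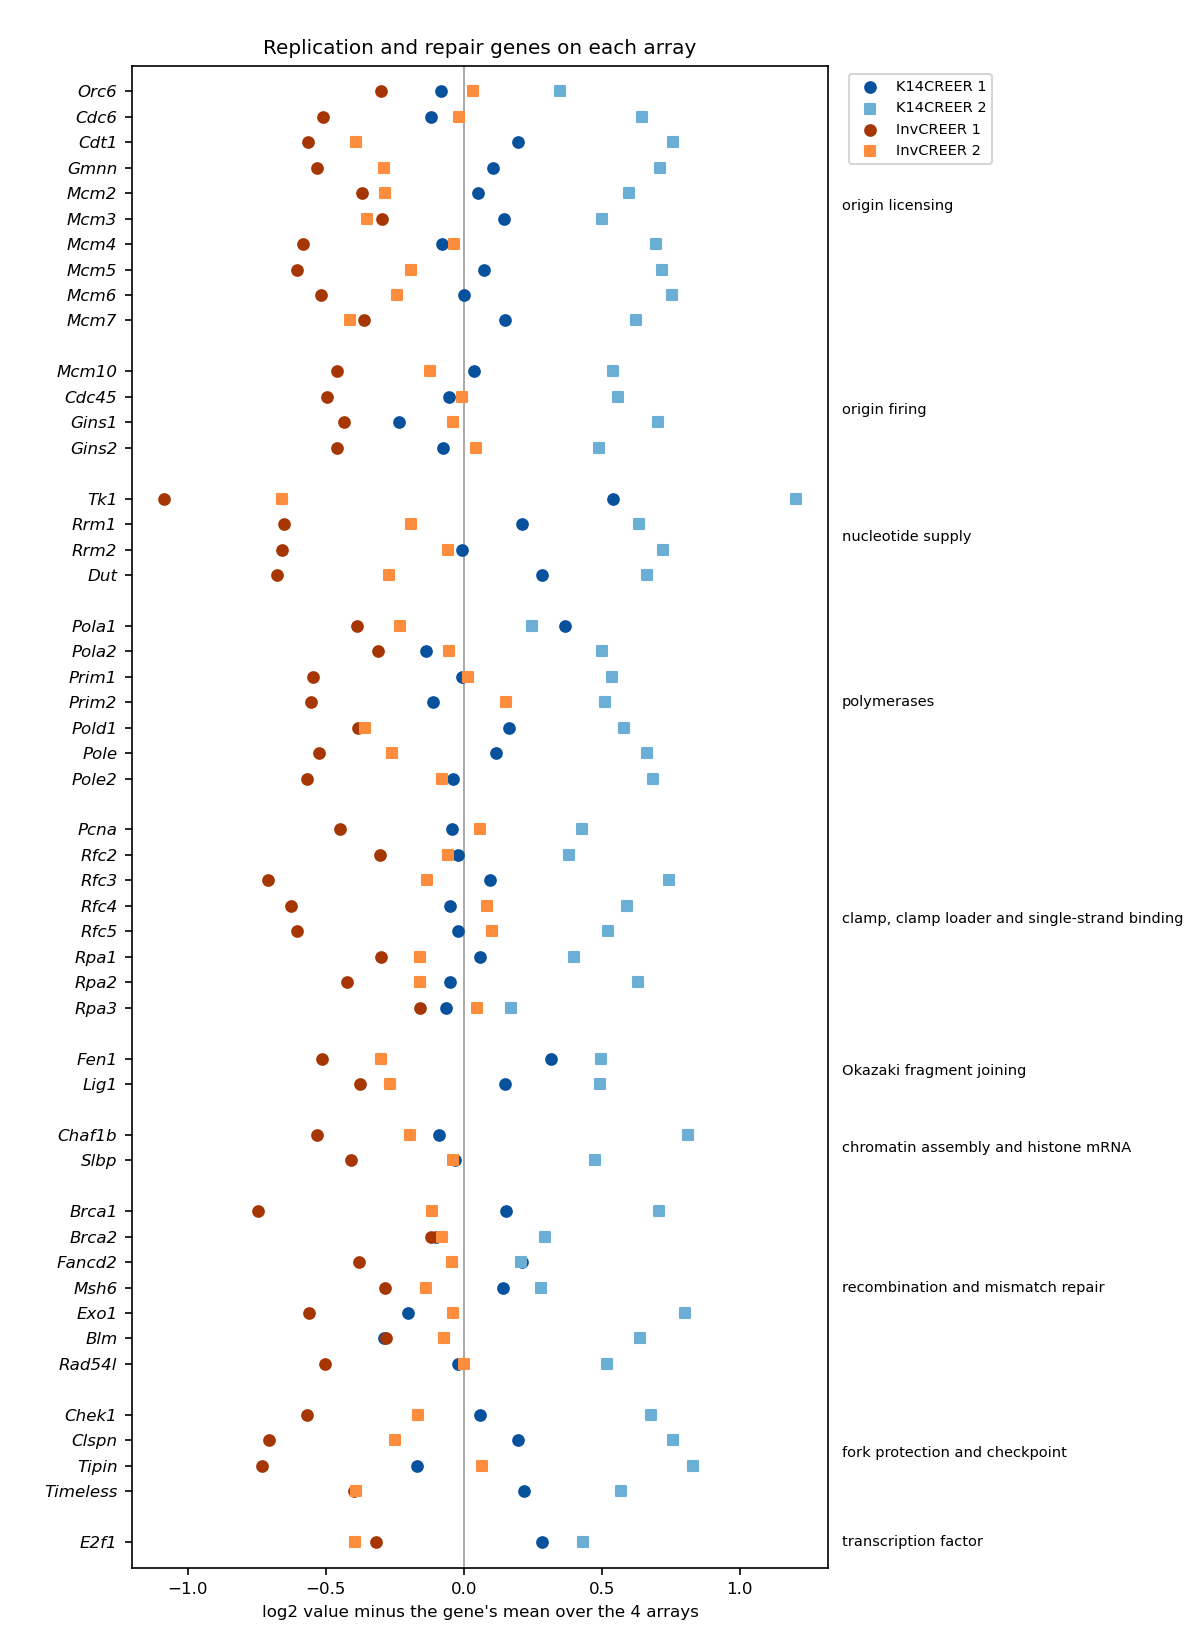
Log2 value of each tested replication and repair gene on each of the 4 arrays, as the difference from that gene's mean over the arrays, with genes grouped by role. K14CREER 2 is the highest array for most genes and InvCREER 1 the lowest, while K14CREER 1 and InvCREER 2 lie close together for many, such as Mcm4, Prim1 and Pcna.

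**Figure D2:**
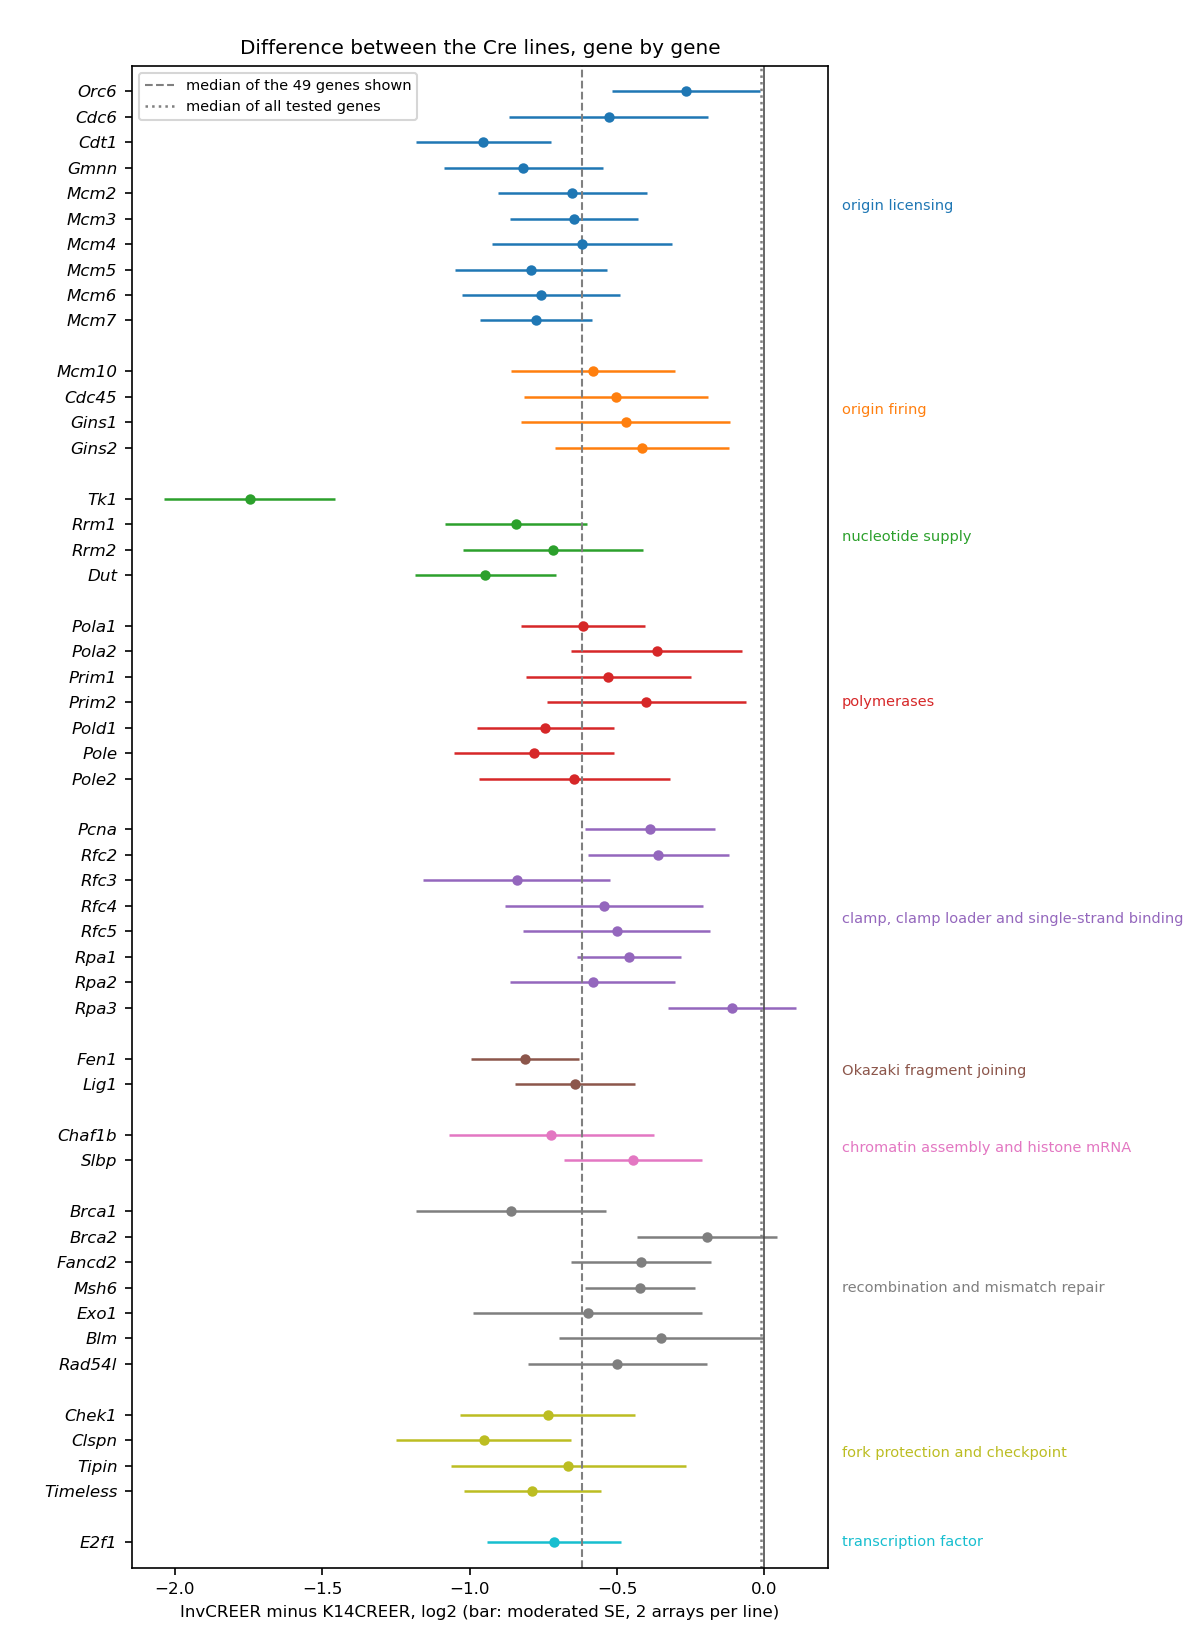
Difference InvCREER minus K14CREER in log2 units for the 49 genes, with the moderated standard error as bar and 2 arrays per line. All points lie below 0, from -0.11 for Rpa3 to -1.75 for Tk1, around a median of -0.62 (dashed), against -0.01 for all tested genes (dotted).

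Origin licensing was represented by 10 genes, all lower in InvCREER, with a median difference of -0.71. Cdt1, which brings the Mcm ring to origins, read 10.46 and 11.02 on the K14CREER arrays and 9.70 and 9.88 on the InvCREER arrays. The groups did not overlap, and the means of 10.74 ± 0.40 and 9.79 ± 0.12 (SD, n = 2 per line) differed by -0.95 (SE 0.23, limma adjusted p = 0.125). A second tested Cdt1 probe set lay at -0.97. Gmnn, which encodes geminin, the inhibitor of Cdt1, read 8.96 and 9.56 in K14CREER and 8.32 and 8.57 in InvCREER, again without overlap. The loader and its inhibitor thus lay lower side by side, Gmnn by -0.82 (SE 0.27, limma adjusted p = 0.243). Cdc6 and Orc6, which act earlier in loading, had smaller differences of -0.53 and -0.27, and in both the lines overlapped because InvCREER 2 exceeded K14CREER 1.

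The 6 genes of the Mcm ring stayed within a narrow band, from -0.62 for Mcm4 to -0.79 for Mcm5. Mcm7 read 11.27 and 11.74 in K14CREER against 10.75 and 10.70 in InvCREER, a difference of -0.77 (SE 0.19, limma adjusted p = 0.129). Mcm5 was at 10.83 and 11.47 against 10.15 and 10.57. Mcm6 was at 10.74 and 11.50 against 10.22 and 10.50. In these 3 genes each InvCREER array was below each K14CREER array. Mcm2 and Mcm3, at -0.65 and -0.65, were also separated, whereas Mcm4 was not, with 10.43 on K14CREER 1 and 10.47 on InvCREER 2. A second tested Mcm4 probe set, at -0.45, was separated. Further tested probe sets of Mcm2, Mcm3, Mcm4, Mcm5, Mcm6 and Mcm7 were all lower in InvCREER as well.

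Promoters of these genes were searched for letters known from cell cycle genes. RefSeq promoters of GRCm38.p6, from 250 bases before to 50 after the start, were matched by symbol for 42 of the 52 genes. Unmatched were Gmnn, Mcm4, Gins1, Gins2, Prim2, Pole, Rfc2, Fancd2, Exo1 and Tipin. The E2F site was searched on both strands in its 4 spellings, TTTCCCGC, TTTCGCGC, TTTGCCGC and TTTGGCGC. It was present in 15 of the 42 genes (35.7%), against 2.61% of the 27025 genes with a promoter entry and 4.86% of the tested genes among them. In the 150 bases before the start alone it was present in 11.9% of the 42, against 2.68% of the tested genes. CCAAT, the letters of the NF-Y box, was present in 57.1% of the 42 and 42.8% of the tested genes, and the cell cycle homology letters TTTGAA or TTCGAA in 14.3% and 16.1%. A match is a description of the letters and not a binding site. The 14 tested genes with E2F letters had a median difference of -0.69, and the 25 without them -0.58, Tk1 among the latter. The split by CCAAT ran the other way, with -0.58 for the 23 genes that hold it and -0.72 for the 16 that do not. For the cell cycle homology letters it was -0.77 for 5 genes and -0.63 for 34.

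The sequences below show the 170 bases before the start for 4 of the genes with E2F letters there and for Tk1, the gene with the largest difference. They are written 5' to 3' along the gene from GRCm38.p6, with capitals for the E2F letters and for CCAAT on either strand. In Mcm5 and in Mcm6 a pair of E2F spellings on opposite strands overlap, so that they form 1 run of capitals, and in Tk1 neither kind of letters is in the window.
Mcm5, chr8:75109339-75109508, plus strand: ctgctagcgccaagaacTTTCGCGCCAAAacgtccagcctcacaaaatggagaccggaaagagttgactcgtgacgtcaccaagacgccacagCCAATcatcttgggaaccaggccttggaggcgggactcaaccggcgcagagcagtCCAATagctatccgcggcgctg
Mcm6, chr1:128359706-128359875, minus strand: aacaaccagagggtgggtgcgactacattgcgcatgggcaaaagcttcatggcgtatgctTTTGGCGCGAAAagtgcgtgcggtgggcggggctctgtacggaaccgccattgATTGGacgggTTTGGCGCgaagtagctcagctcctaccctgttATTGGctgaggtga
Mcm7, chr5:138171884-138172053, minus strand: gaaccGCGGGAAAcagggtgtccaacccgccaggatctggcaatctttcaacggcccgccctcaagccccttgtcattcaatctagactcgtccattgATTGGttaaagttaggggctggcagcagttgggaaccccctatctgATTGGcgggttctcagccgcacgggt
Pola1, chrX:93632156-93632325, minus strand: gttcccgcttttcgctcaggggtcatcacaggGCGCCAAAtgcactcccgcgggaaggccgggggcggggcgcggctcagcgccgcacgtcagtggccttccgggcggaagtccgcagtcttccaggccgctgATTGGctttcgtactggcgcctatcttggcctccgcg
Tk1, chr11:117826015-117826184, minus strand: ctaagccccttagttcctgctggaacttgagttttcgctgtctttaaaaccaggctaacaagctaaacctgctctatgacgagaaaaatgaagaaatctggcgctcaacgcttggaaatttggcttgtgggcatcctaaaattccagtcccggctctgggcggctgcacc

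In further genes the E2F letters lie just after the start, and 30 bases around them are shown, with only the E2F letters in capitals.
Cdt1, chr8:122568035-122568064, plus strand: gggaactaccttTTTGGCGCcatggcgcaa
Clspn, chr4:126556990-126557019, plus strand: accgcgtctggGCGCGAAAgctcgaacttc
Pold1, chr7:44548766-44548795, minus strand: cacggcggcgtatcttgtgGCGGGAAAagc
Pole2, chr12:69228162-69228191, minus strand: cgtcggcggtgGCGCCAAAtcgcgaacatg
Msh6, chr17:87975054-87975083, plus strand: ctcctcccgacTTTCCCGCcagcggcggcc

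Origin firing genes, which turn the loaded ring into a helicase, lay lower by less. Their median was -0.49 over 4 genes, and 1 of them did not overlap between the lines. This share, 25%, is near the 24.1% of all tested genes that were separated with InvCREER lower. Mcm10, which helps to activate the helicase, read 7.36 and 7.86 in K14CREER and 6.86 and 7.20 in InvCREER, a difference of -0.58. Cdc45, the helicase cofactor, was at 7.12 and 7.73 against 6.68 and 7.17. The GINS subunit genes Gins1 and Gins2 were at -0.47 and -0.41. For Cdc45, Gins1 and Gins2 InvCREER 2 was above K14CREER 1, so the lines overlapped. A second tested probe set of Cdc45, at -0.23, was separated, while that of Gins2, at -0.60, was not.

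Nucleotide supply genes had the lowest median of the roles with more than 1 tested gene, -0.90. On the brightest tested probe set of each, all 4 were separated between the lines, against 24.1% of all tested genes. Tk1, the thymidine kinase that salvages thymidine in cycling cells, read 9.74 and 10.41 on the K14CREER arrays and 8.11 and 8.54 on the InvCREER arrays. The groups did not overlap, and the gap between them was larger than the 0.66 and 0.43 between arrays of a line. Its means, 10.07 ± 0.47 and 8.33 ± 0.30 (SD, n = 2 per line), differed by -1.75 (SE 0.29, limma adjusted p = 0.0566), a 3.36-fold higher level in K14CREER. Without K14CREER 2 the adjusted p of Tk1 was 0.160 by limma, and without InvCREER 2 it was 0.0038. No second probe set of Tk1 was named.

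Dut, the dUTPase that keeps uracil out of DNA, read 9.76 and 10.15 against 8.80 and 9.21, a difference of -0.95 (SE 0.24, limma adjusted p = 0.137). Ribonucleotide reductase makes deoxynucleotides from a large and a small subunit. Rrm1, the large one, read 10.22 and 10.64 against 9.36 and 9.82 (difference -0.84, limma adjusted p = 0.181). Rrm2, the small one, was at 10.49 and 11.22 against 9.84 and 10.44 (difference -0.72), so that its lines were separated by only 0.05. On its other tested probe sets, at -0.65 and -0.69, the lines overlapped. All 4 Tyms probe sets lay under the filter and are not part of these counts.

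The 7 polymerase and primase genes had a median of -0.62, and 4 were separated (57.1%, against 24.1% of all tested genes). Pole, the catalytic subunit of the leading-strand polymerase epsilon, read 8.32 and 8.86 in K14CREER and 7.68 and 7.94 in InvCREER, a difference of -0.78 (SE 0.27). Pold1, the catalytic subunit of polymerase delta, was at 8.88 and 9.30 against 8.33 and 8.36 (difference -0.74), and its second probe set at -0.73. Pola1, the catalytic subunit of the polymerase that starts new strands with primase, was at 8.98 and 8.86 against 8.23 and 8.38. It was 1 of 2 genes of the 49 whose K14CREER 2 value was not above K14CREER 1, the other being Fancd2. Pole2 was at -0.64. Pola2, Prim1 and Prim2, the accessory and primase subunits, were at -0.37, -0.53 and -0.40, and on these probe sets the lines overlapped. The other tested probe sets of Prim1 and Prim2, at -0.46 and -0.75, were separated.

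Pcna, the sliding clamp and a widely used proliferation marker, differed by less between the lines than between the arrays of each line. It read 12.01 and 12.48 in K14CREER and 11.60 and 12.11 in InvCREER, a difference of -0.39 (SE 0.22, limma adjusted p = 0.541), with InvCREER 2 above K14CREER 1. The clamp, its loader and the single-strand binding proteins together had a median of -0.48 over 8 genes. Of the 8, 4 were separated (50%, against 24.1% of all tested genes). Among the loader genes Rfc3 was lowest, at 8.73 and 9.38 against 7.93 and 8.51 (difference -0.84), while Rfc2, Rfc4 and Rfc5 were at -0.36, -0.54 and -0.50. Of the subunits of replication protein A, Rpa2 was at -0.58 (SE 0.28), Rpa1 at -0.46 (SE 0.18) and Rpa3 at -0.11 (SE 0.22). Their order was not tested. On second tested probe sets Rpa2 was at -0.76 and Rpa1 at -0.27, both with overlapping lines. Rpa3 had the smallest difference of the 49, with 8.73 and 8.96 in K14CREER and 8.63 and 8.84 in InvCREER, and without K14CREER 2 its sign turned, to 0.0079.

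Both genes of Okazaki fragment joining were separated, where 24.1% of all tested genes were. Fen1, the flap nuclease, read 10.37 and 10.55 against 9.54 and 9.75, with arrays of a line close together and a difference of -0.81 (SE 0.18, limma adjusted p = 0.108). Its second probe set was at -0.83. Lig1, the ligase that seals the fragments, was at 9.81 and 10.16 against 9.29 and 9.39 (difference -0.64). Of the chromatin genes, Chaf1b, a subunit of the histone chaperone CAF-1, was at -0.72, and Slbp, which binds histone mRNA, at -0.45. Both were separated, Slbp by only 0.01. On a second tested Slbp probe set, at -0.31, the lines overlapped.

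Recombination and mismatch repair genes had the highest median of the roles, -0.42, and 3 of 7 were separated (42.9%, against 24.1% of all tested genes). Brca1, which acts in repair by recombination, read 7.58 and 8.14 in K14CREER and 6.68 and 7.32 in InvCREER, a difference of -0.86 (SE 0.32, limma adjusted p = 0.308). Brca2, which loads the recombinase, was at 8.15 and 8.55 against 8.14 and 8.17, a difference of -0.20 that turned to 0.0017 without K14CREER 2. Msh6, a mismatch recognition protein, was separated with a smaller difference, 9.76 and 9.89 against 9.33 and 9.48. Fancd2, of the Fanconi pathway, was at -0.42, the nuclease gene Exo1 at -0.60 and the recombination motor gene Rad54l at -0.50. Blm, a helicase that resolves recombination intermediates, was at 6.79 and 7.72 against 6.80 and 7.01, so that the lines overlapped. Its difference of -0.35 became 0.11 without K14CREER 2.

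The fork protection and checkpoint genes had a median of -0.76, and 3 of 4 were separated (75%, against 24.1% of all tested genes). Clspn, which encodes claspin, the adaptor between stalled forks and Chek1, read 8.12 and 8.69 against 7.22 and 7.68, a difference of -0.95 (SE 0.30, limma adjusted p = 0.218). Timeless, a fork protection factor, was at 8.44 and 8.79 against 7.83 and 7.83 (difference -0.79). Tipin, its binding partner, had a difference of -0.67 with overlapping lines, at 9.56 and 10.56 against 8.99 and 9.79. Chek1, the checkpoint kinase, was at 8.21 and 8.83 against 7.58 and 7.98 (difference -0.74). The lines overlapped on the other tested probe sets of Chek1, at -0.68 and -0.56, and on that of Clspn, at -0.55. E2f1, the transcription factor that activates many of these genes, was at 7.21 and 7.36 against 6.61 and 6.53, a difference of -0.71 (SE 0.23, limma adjusted p = 0.227). The lines did not overlap.

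Arrays of the same line also differed. K14CREER 2 was above K14CREER 1 in 47 of the 49 genes, by a median of 0.55, and InvCREER 2 was above InvCREER 1 in 46, by 0.34. Over all tested genes these medians were 0.04 and 0.05. In 44 of the 49 array 2 was higher in both lines, against 38.3% of all tested genes. The excess of 3' over 5' signal in log2 units, which grows as RNA degrades, was also higher on array 1 of both lines. For Actb it was 0.94 on array 1 and 0.68 on array 2 of K14CREER, and 1.24 and 0.77 of InvCREER. For Gapdh it was 0.33 and 0.07, and 0.74 and 0.05. Its part in the shift between arrays was not tested. Between arrays of the same number InvCREER was lower in 48 of 49 genes for number 1 (median -0.52) and in 49 for number 2 (median -0.76), and 35.8% of all tested genes were lower for both numbers. InvCREER 2 set against K14CREER 1 gave 31 lower and 18 higher, with a median of -0.16. The median difference of the 49 was -0.33 without K14CREER 2, with 46 lower and Rpa3, Brca2 and Blm higher. It was -0.91 without K14CREER 1, -0.41 without InvCREER 1 and -0.76 without InvCREER 2, with all 49 lower in each.

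**Figure D3:**
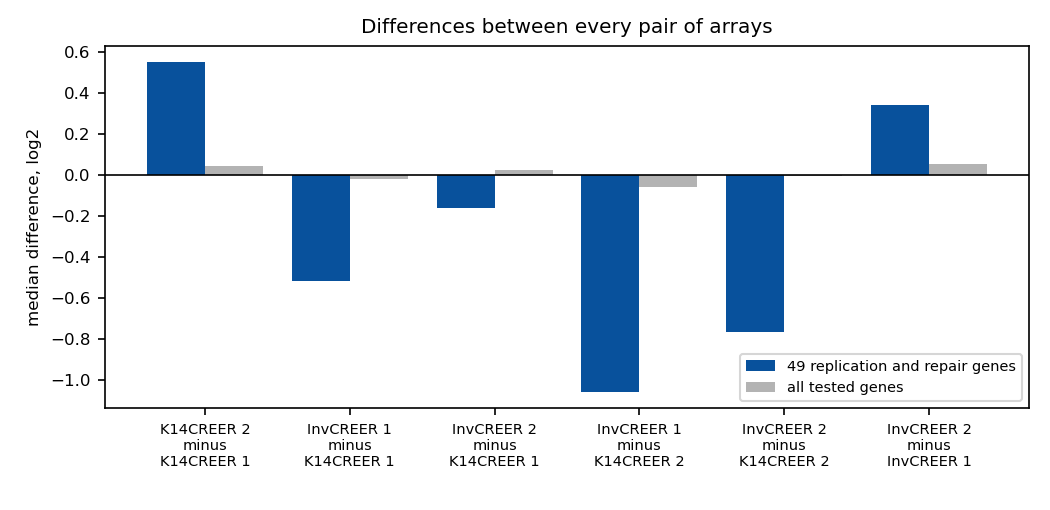
Median log2 difference over the 49 replication and repair genes (dark bars) and over all tested genes (light bars) for each of the 6 pairs of arrays. The genes differ by 0.55 within K14CREER and 0.34 within InvCREER, and by -0.16 to -1.06 between arrays of different lines.

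Probe sets of the same gene lay in the same direction. Each gene is represented above by its tested probe set with the highest mean. The 37 other tested probe sets of 28 genes were all lower in InvCREER, with a median of -0.65 and differences from -1.02 to -0.23. Of the 37, 25 were separated between the lines, where 24.1% of all tested genes, on 1 probe set each, were separated with InvCREER lower. The widest range within a gene was 0.40. Separation could differ between probe sets of a gene. Mcm4, Cdc45, Prim1, Prim2, Rfc4 and Exo1 overlapped on the representative probe set but were separated on another tested one. Rrm2, Rfc2, Rpa1, Rpa2, Slbp, Chek1 and Clspn were separated on the representative probe set but overlapped on another tested one.

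**Figure D4:**
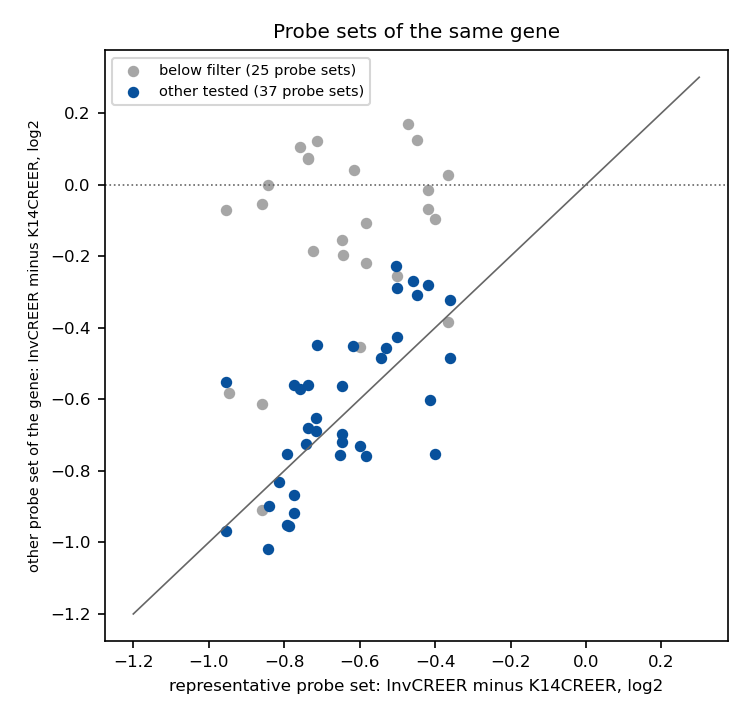
Difference InvCREER minus K14CREER in log2 units on the representative probe set of a gene (horizontal) against that on its other probe sets (vertical), with the diagonal of equality. The 37 other tested probe sets all lie below 0, while those below the filter scatter up to 0.17.

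Other genes of the same pathways were read from lists chosen by name. Among 42 tested further replication genes 37 had lower means, with a median of -0.30. Of the 42, 19 were separated with InvCREER lower (45.2%, against 24.1% of all tested genes) and 0 with it higher. Limma called 0, and 3 were lower and 0 higher at an unadjusted p under 0.05, where 8.54% of all tested genes were lower, so that this count is near the background. Dtymk, the thymidylate kinase that acts after Tk1, was at 9.91 and 10.12 against 8.82 and 9.21, with means of 10.02 and 9.01 (limma adjusted p = 0.102). Cdc7, the kinase that fires origins, was at -0.79 and the histone chaperone gene Asf1b at -0.74.

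Further recombination and Fanconi genes were lower in 25 of 37, with a median of -0.12. Of these 37, 14 were separated with InvCREER lower (37.8%, against 24.1% of all tested genes) and 4 with it higher. Limma called 0 of them, with 3 lower and 0 higher at an unadjusted p under 0.05, near the 8.54% lower among all tested genes. Rad54b, a motor protein gene of recombination, was at 6.18 and 6.48 against 4.96 and 5.70. Brip1, a helicase partner of Brca1, was at -0.82 and Rad51ap1 at -0.75. Among 28 tested genes of repair that is not tied to S phase, such as excision repair and end joining, 18 were lower and 10 higher, with a median of -0.08. Separated were 8 with InvCREER lower (28.6%, against 24.1% of all tested genes) and 6 with it higher. Limma called 0, and at an unadjusted p under 0.05 there were 2 lower and 2 higher, against 8.54% lower among all tested genes. The base excision polymerase gene Polb read 9.79 and 9.77 against 10.67 and 10.53 (difference 0.82, limma adjusted p = 0.0860). Ercc5 was at -0.55 and Xpc at -0.54.

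Regulators of the G1 to S transition did not share a direction. Of 30 tested, 22 had lower and 8 higher means, with a median of -0.29. Separated were 13 with InvCREER lower (43.3%, against 24.1% of all tested genes) and 4 with it higher. At an unadjusted p under 0.05 there were 8 lower and 2 higher, against 8.54% lower among all tested genes. Limma called 2 of the 30 higher, the genes of CDK inhibitors Cdkn2b and Cdkn1a, where 108 of all 11270 tested genes were. Cdkn2b went from 6.97 and 6.72 to 9.15 and 9.53, by 2.49 (SE 0.25, limma adjusted p = 0.0153). Cdkn1a went from 9.34 and 9.29 to 11.58 and 11.50, by 2.22 (SE 0.16, limma adjusted p = 0.00663). Limma called 0 genes of this list lower. The lowest differences in it were those of E2f7 at -1.19, E2f8 at -0.89, Ccna2 at -0.88 and Tfdp2 at -0.81. Cdkn1c, a further CDK inhibitor gene chosen after its values were seen, was at 5.99 and 5.97 against 5.21 and 5.50 (difference -0.62, limma adjusted p = 0.285). The cyclin D genes Ccnd2 and Ccnd1, chosen likewise, were at -0.80 and -0.64, and Ccnd3 was at -0.06. In the list of G2 and mitosis genes 30 of 31 lay lower, with a median of -0.83, and 30 were separated, against 24.1% of all tested genes. Limma called 0, with 28 lower and 0 higher at an unadjusted p under 0.05, against 8.54% lower among all tested genes. Birc5, which encodes survivin, was at -1.82, Aurkb at -1.15 and Ube2c at -1.14. The difference between these lists was not tested.

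**Figure D5:**
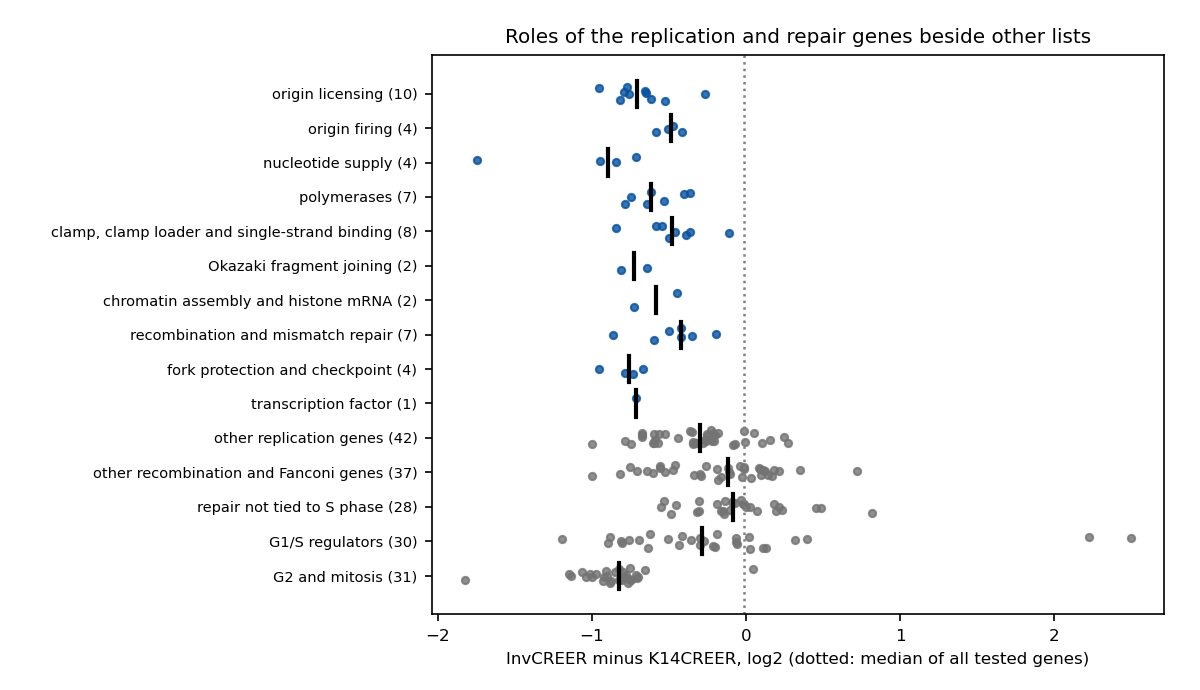
Difference InvCREER minus K14CREER in log2 units for each tested gene (points) and the median (bar) of each role of the replication and repair genes (dark) and of the other lists (grey), with the number of tested genes in brackets. Medians of the roles run from -0.90 for nucleotide supply to -0.42 for recombination and mismatch repair, and the list of repair not tied to S phase is at -0.08.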

How the data were processed

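Total RNA of the sorted cells was amplified from the 3' end and labelled, as the labels' protocols state. The submitters' processing notes name RMA and Affymetrix Expression Console 1.1 as the authors' tools. What was deposited is a log2 value per probe set and array. RMA gives arrays a common distribution, so a change in total RNA does not show. The number of arrays limits the precision.

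Of 45101 probe sets, 64 controls were set aside, and 22519 with a mean at or above the median of the rest (5.42) were tested. Symbols came from the platform annotation, updated by Entrez number in RefSeq genes of GRCm38.p6, and 34945 probe sets had 1 symbol, 932 several and 9160 none. A probe set with several symbols named no gene. InvCREER was compared with K14CREER in limma 3.58.1 (R 4.3.3; lmFit, eBayes with trend, no block), with Benjamini-Hochberg adjustment over all tested probe sets. The test was tried on simulated data. Separated means that both InvCREER arrays lay under both K14CREER arrays, or the reverse.

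All 52 genes were named. Of the other replication, repair and cell cycle lists the called genes were named, or else the 3 with the largest difference. In the list of G1 to S regulators further genes were named after their values were seen. Of the marker lists only some genes were named, and not all called ones. The genes and lists were chosen with earlier results of these data known, so no set test was made. Alternatives covered filter, variance model, weights, scaling, replicate block, left-out arrays, the threshold, testing by gene, the kind of probe set and the promoter window.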

Additional observations from a re-analysis of the deposited data

How the results depend on the processing

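The direction of the 49 genes was lower for all of them under every alternative that tested these 49 and kept all 4 arrays, with medians of -0.64 to -0.62. Without the filter on dim probe sets Tyms, at 0.22, was higher and Bard1 was lower. Leaving out 1 array moved the median to between -0.91 and -0.33, and 3 genes turned sign when K14CREER 2 was left out. With 1 array left out Rpa3 ranged from -0.23 to 0.0079, Brca2 from -0.39 to 0.0017 and Blm from -0.81 to 0.11. The number of the 49 called was 0 in the chosen setting. It was 1, Tk1, at the stricter filter, with quantile normalization, at an adjusted p under 0.10, with 1 probe set per gene and with the mean of a gene's probe sets. Over these and the other alternatives the limma adjusted p of Tk1 ran from 0.0038 to 0.160.

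The array numbers in the titles are not said to mark mice or batches, and 2 pairs cannot show pairing. Deviations from the line means correlated at 0.38 between arrays of the same number. With the replicate block 13 of the 49 were called (Tk1, Rrm1, Rrm2, Dut, Cdt1, Gmnn, Mcm4, Mcm5, Mcm6, Mcm7, Fen1, Rfc3 and Clspn) and 1390 probe sets in all. Without the block 216 probe sets were called, and 82 to 981 with 1 array left out. There were 395 at the stricter filter, 122 without the variance trend, 692 at an adjusted p under 0.10, 551 with 1 probe set per gene and 450 with the mean of probe sets. Fewer probe sets are tested in the stricter filter and gene settings, and the variance trend is fitted anew on them. The looser threshold was applied to the same fit as the chosen setting. Apart from that threshold, the cause of the shifts was not tested. The share of genes with E2F letters was 11.9% in the shorter promoter window, against 35.7%. Of 784 single-gene differences under alternatives, 759 kept direction and side of the threshold, 22 passed it and 3 reversed.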

Other observations

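Probe sets of these genes under the intensity filter gave a mixed picture. Of 30 such probe sets, 21 had lower means in InvCREER, 11 were separated with InvCREER lower and 1 with it higher, and the median difference was -0.07. The share separated among all probe sets under the filter was not determined. Bard1 had 1 probe set, with 4.27 and 4.74 for K14CREER against 3.93 and 3.92 and no overlap. Of the 3 dim Brca1 probe sets, 1 was at 5.13 and 5.47 against 4.35 and 4.43, a difference of -0.91 beside -0.86 on the tested one. The brightest of the 4 Tyms probe sets was at 4.67 and 4.98 against 5.19 and 4.91, so that the lines overlapped. Values this low lie near background, and the part of this in the differences was not tested.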
